A study of Mus musculus with 10 samples.

Results

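In mouse B cell lymphomas that differ in the Il10 gene, 20 genes stood on opposite sides of normal germinal centre B cells: higher in the lymphoma with Il10 intact (pBIC) and lower in the lymphoma with Il10 floxed (pBIC10). They included the theta-class glutathione transferases Gstt1, Gstt2 and Gstt3, and the interferon-induced GTPases Gbp4 and Gbp8. Also among them were the surface proteins Timd2, Lag3, Cd300lf and Cd59a, the intracellular protease inhibitor Serpinb6b and Mx1, annotated as a transcribed pseudogene. The genes were taken out of 46316 in the count table, of which 17718 had enough counts to be tested, all 20 among them. Each had at least 2 CPM (counts per M counts of its library) in every normal library. The lowest pBIC library lay at 1.5 times the highest normal library or above, and the highest pBIC10 library at 0.67 times the lowest normal library or below. The rule used all 10 libraries and all 3 comparisons, so the levels and fold changes of the 20 genes are given as a description with no test.

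RNA was sequenced from sorted spleen cells of C57BL/6 mice in 3 groups. The pBIC10 group (3 libraries, 2 from females and 1 from a male, replicate 3) carried the alleles p53F/F and Blimp1F/F, IKK2castopF/stopF, in which Cre releases a constitutively active IKK2 kinase, the germinal centre driver Cg1Cre/+ and also IL-10F/F. The pBIC group (3 libraries, all from females) had that genotype without IL-10F/F, and in both groups B220+GFP+ lymphoma cells were sorted from moribund mice. The YC group (4 libraries, 3 from females and 1 from a male, replicate 3) came from YFPstopF/+ and Cg1Cre/+ mice, as B220+YFP+ germinal centre B cells taken 10 days after the second of a pair of sheep red blood cell injections given 20 days apart, by the series' design text. Some sample labels of YC repeat the lymphoma wording. All 3 groups shared Cg1Cre/+, which is active in B cells that have entered the germinal centre. Deletion of the floxed Il10 part was not measured here.

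Libraries held 12.59 to 19.13 M counts, and a count of 0 in 1 library allowed up to 0.157 to 0.238 CPM (3 counts, counting error only). Trp53 stood at 38.4 to 49.5 CPM in pBIC10, 16.9 to 53.6 CPM in pBIC and 180 to 198 CPM in YC, and Prdm1, the Blimp1 gene, at 0.35 to 1.67 CPM in pBIC10, 5.9 to 15.1 CPM in pBIC and 16.5 to 38.4 CPM in YC. Ikbkb, the IKK2 gene, stood at 352 to 418 CPM in pBIC10, 206 to 351 CPM in pBIC and 127 to 161 CPM in YC. Il10 stood at 1.98 to 5.01 CPM in pBIC10, 6.32 to 20.3 CPM in pBIC and 4.24 to 10.2 CPM in YC, so that pBIC10 and YC overlapped. All 3 libraries of each lymphoma group had the same leading heavy chain variable segment. Ighv7-3 took 67.4 to 70.5% of such counts in pBIC10, and Ighv8-11 took 51.6 to 59.1% in pBIC. By their titles, pBIC and YC libraries are re-analyses of an earlier series, which pBIC10 libraries are not. Genotype, clone and series cannot be told apart for any gene below. Whether the 3 libraries of a lymphoma group are independent tumours is likewise not known from these files, and if they are not, every SE and adjusted p below covers less than the spread between tumours. The 10 markers of B cells summed to 3130 to 5190 CPM in pBIC10, 2400 to 4550 CPM in pBIC and 9640 to 11500 CPM in YC. In bulk libraries, fewer cells of a type and less RNA per cell cannot be told apart.

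Glutathione transferases join glutathione to reactive compounds, and together with the thioredoxin system they are part of how a cell handles oxidants and foreign chemicals. Interferon gamma, made by T and NK cells, induces guanylate-binding proteins, large GTPases that attack microbes inside the cell, and in B cells it also acts on antigen presentation and germinal centre responses. IL-10 is a cytokine that dampens inflammatory signals, and diffuse large B cell lymphoma of the activated B cell-like type can make it itself.

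The 20 genes differed widely in size of change. Mean pBIC levels were 1.7 (Txnrd1) to 32.2 (Serpinb6b) times the YC mean, with a median of 3.77 times. Mean YC levels were 1.77 (Txnrd1) to 34.1 (Timd2) times the pBIC10 mean, with a median of 5.03 times. On the log2 scale, 13 of the 20 lay farther from YC in pBIC10 and 7 lay farther from YC in pBIC. All 20 were among the genes called by edgeR at an adjusted p under 0.05 as lower in pBIC10 than in pBIC, against 15.1% of all tested genes (15.6% were called higher). All 20 were likewise called higher in pBIC than in YC, against 26.4% of tested genes (27.7% were called lower). All 20 were called lower in pBIC10 than in YC, against 26.9% of tested genes (24.8% were called higher). Both calls against YC together were met by 205 genes, 1.16% of those tested. The rule had already used these contrasts, and nothing is read from the counts.

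**Figure D1:**
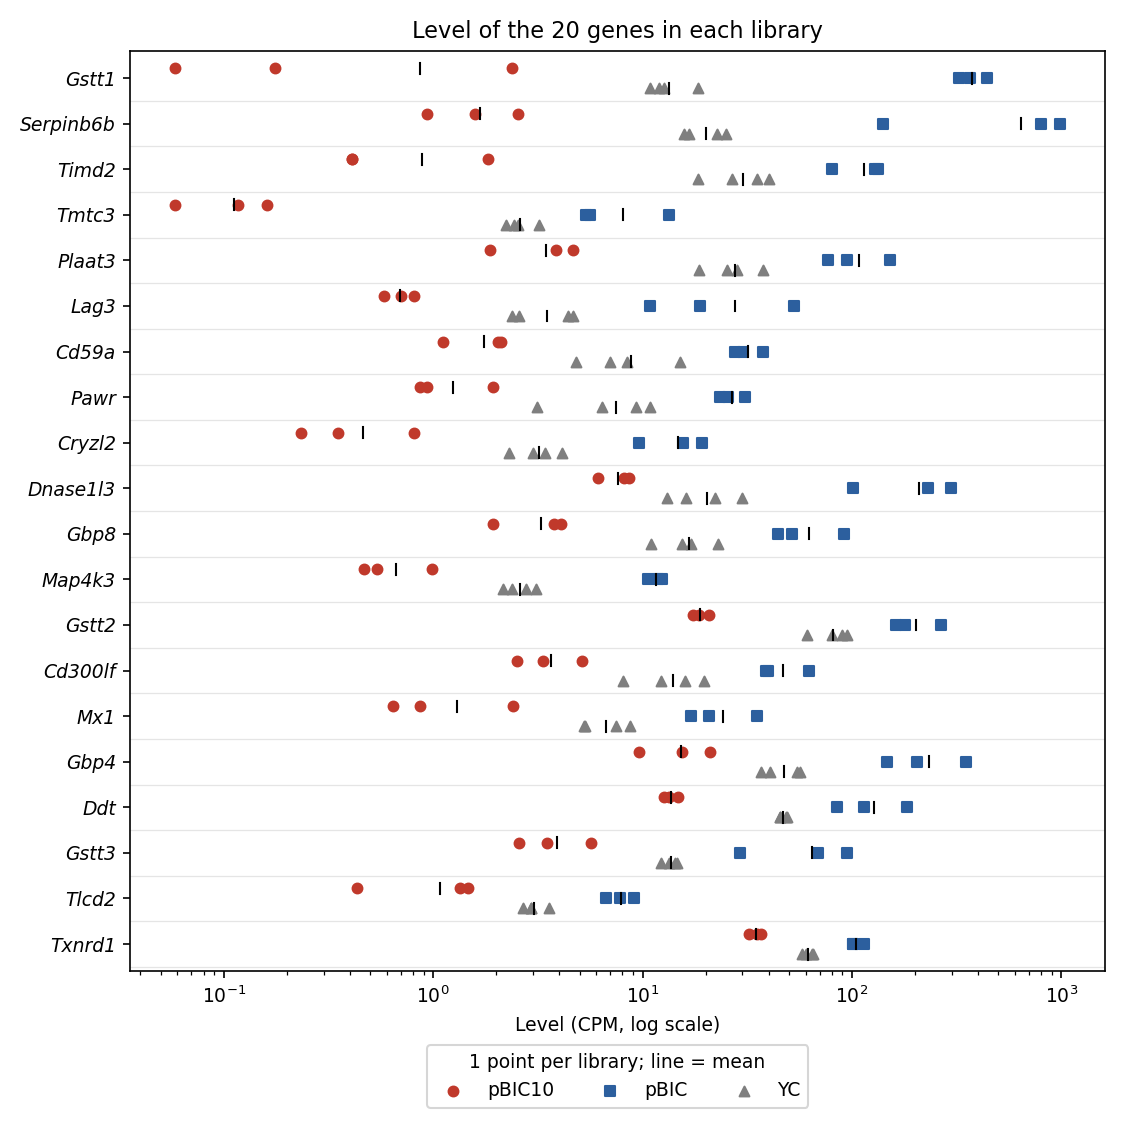
Level of each of the 20 genes in CPM (log scale) with 1 point per library and a short line at the group mean, for 3 pBIC10, 3 pBIC and 4 YC libraries. In every row the pBIC10 points lie left of the YC points and the pBIC points right of them, as the rule required; Gstt1 and Serpinb6b span the widest range and Txnrd1 the narrowest.

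Gstt1, Gstt2, Gstt3 and Ddt lie next to each other on chromosome 10, in the order Ddt, Gstt3, Gstt1, Gstt4, Gstt2 and Mif in the RefSeq annotation. Gstt1, a theta-class glutathione transferase known for acting on small halogenated compounds, had 0.0585, 0.175 and 2.37 CPM in the pBIC10 libraries, 365, 439 and 323 CPM in the pBIC libraries and 10.8, 18.3, 12 and 12.7 CPM in the YC libraries. The first pair of pBIC10 values rests on 1 and 3 counts and the highest, from the male library, on 44 counts. The log2 fold change (± SE, here and below) of Gstt1 was -8.77 ± 0.76 between pBIC10 and pBIC, 4.82 ± 0.54 between pBIC and YC and -3.95 ± 0.66 between pBIC10 and YC. Without pBIC10 replicate 3 the first of these was -11.56 and the last -6.74. Of the 20 genes it had the largest ratio of means between pBIC and pBIC10, 433-fold.

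Gstt3, a further theta-class enzyme, was at 2.57, 5.66 and 3.50 CPM in pBIC10, 69.1, 94.5 and 29.1 CPM in pBIC and 13.4, 14.3, 14.6 and 12.2 CPM in YC. Its lowest pBIC library, replicate 3, was still 2.0 times its highest YC library. Gstt2, the most abundant of the 3 transferases in YC, was at 17.4, 18.6 and 20.7 CPM in pBIC10, 180, 267 and 163 CPM in pBIC and 60.8, 89.8, 95.0 and 79.9 CPM in YC. Between pBIC10 and pBIC the log2 fold change was -4.08 ± 0.43 for Gstt3 and -3.48 ± 0.26 for Gstt2. Ddt encodes D-dopachrome tautomerase, a relative of the cytokine Mif. It stood at 12.6, 13.4 and 14.7 CPM in pBIC10, 84.5, 184 and 114 CPM in pBIC and 48.6, 45.3, 49.1 and 45.1 CPM in YC, with the smallest spread in YC of all 20 genes (highest over lowest library 1.09). Against YC its log2 fold change was -1.82 ± 0.26 in pBIC10 and 1.47 ± 0.24 in pBIC.

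The genes beside these 4 were not chosen by the rule and could be tested. Gstt4, which lies between Gstt1 and Gstt2 and missed the rule only through its low YC level, had 0.0585, 0.0583 and 0.108 CPM in pBIC10, 3.48, 7.47 and 6.84 CPM in pBIC and 0.372, 0.477, 0.488 and 0.435 CPM in YC. It was lower in pBIC10 than in pBIC (log2 fold change -6.21 ± 0.57, edgeR adjusted p = 7.06e-06). It was higher in pBIC than in YC (3.74 ± 0.42, edgeR adjusted p = 1.64e-05) and lower in pBIC10 than in YC (-2.47 ± 0.61, edgeR adjusted p = 0.00423), on 4 counts in pBIC10. In pBIC, Gstt4 averaged 5.93 CPM and Gstt1 averaged 376 CPM. Any reads shared between these relatives could not be assigned here, so Gstt4 cannot be counted as independent of them. Mif, on the far side of Gstt2, was above YC in both lymphomas, with a log2 fold change of 0.78 ± 0.23 in pBIC10 (edgeR adjusted p = 0.0126) and of 1.63 ± 0.23 in pBIC (edgeR adjusted p = 9.74e-05). Mif, a cytokine and tautomerase like Ddt, thus had the direction of Ddt in pBIC and the opposite one in pBIC10.

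**Figure D2:**
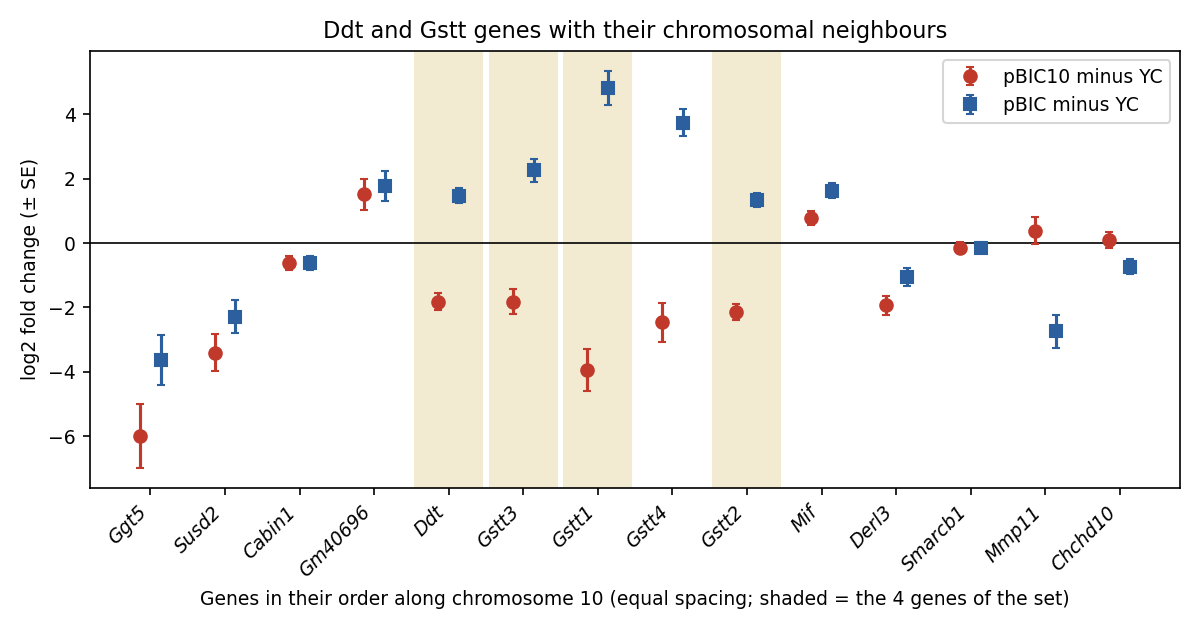
log2 fold change (± SE) against YC of 14 tested genes in their order along chromosome 10, drawn at equal spacing, in pBIC10 (circles) and in pBIC (squares), with the 4 genes of the set shaded. From Ddt to Gstt2 all 5 genes lie below 0 in pBIC10 and above 0 in pBIC, while Mif lies above 0 in both.

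The 250 bases before the RefSeq start sites of genes in this cluster are shown because Ddt, Gstt3 and Gstt1 of the set and Gstt4 between them and Gstt2 had the same pattern; Gstt2 is not shown (GRCm38.p6, minus strand, 5′ to 3′). They lie at chr10:75773375-75773624 for Ddt, chr10:75781423-75781672 for Gstt3, chr10:75797732-75797981 for Gstt1 and chr10:75822544-75822793 for Gstt4. Capitals mark matches to any of 4 motifs searched on both strands: the STAT element GAS (TTCNNNGAA), a pair of interferon regulatory factor core sites (GAAA and GAAA with 2 bases between), a kappaB site (GGGNNNNNCC) and the core of the antioxidant response element (TGANNNNGC).
Ddt: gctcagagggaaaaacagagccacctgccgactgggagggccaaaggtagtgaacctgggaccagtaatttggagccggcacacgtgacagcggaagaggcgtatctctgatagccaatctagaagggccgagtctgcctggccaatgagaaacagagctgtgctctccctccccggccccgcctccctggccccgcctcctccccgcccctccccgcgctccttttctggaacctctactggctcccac
Gstt3: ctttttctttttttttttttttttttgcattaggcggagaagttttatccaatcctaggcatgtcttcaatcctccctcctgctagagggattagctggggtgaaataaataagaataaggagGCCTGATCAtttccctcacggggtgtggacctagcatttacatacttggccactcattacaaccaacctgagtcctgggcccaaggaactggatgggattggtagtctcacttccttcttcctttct
Gstt1: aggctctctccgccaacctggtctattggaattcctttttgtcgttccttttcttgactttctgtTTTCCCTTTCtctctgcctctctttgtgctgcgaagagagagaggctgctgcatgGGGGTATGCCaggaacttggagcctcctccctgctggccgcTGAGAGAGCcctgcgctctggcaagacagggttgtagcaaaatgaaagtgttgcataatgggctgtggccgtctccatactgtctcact
Gstt4: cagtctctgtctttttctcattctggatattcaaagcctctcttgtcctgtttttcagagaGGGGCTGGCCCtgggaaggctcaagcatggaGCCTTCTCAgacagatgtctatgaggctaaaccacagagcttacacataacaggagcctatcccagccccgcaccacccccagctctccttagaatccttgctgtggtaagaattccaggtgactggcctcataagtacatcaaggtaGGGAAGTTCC
The Ddt stretch held no match. The Gstt3 stretch held 1 match to the antioxidant response element core, at -127 to -119 from the start. The Gstt1 stretch held a match each to the interferon regulatory factor pair at -185 to -176, to the kappaB site at -130 to -121 and to the antioxidant response element core at -89 to -81. In Gstt4, the capitals nearest the start are a kappaB match at -10 to -1. A match describes letters and is no evidence of binding.

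Promoter windows, 250 bases before to 50 after the start, were given for 14 of the 20 genes. None was given for Gbp4, Gbp8, Mx1, Lag3, Dnase1l3 and Gstt2, so the shares below do not cover the interferon-induced genes Gbp4, Gbp8 and Mx1. The antioxidant response element core was found in 8 of the 14 (57.1%), in 48.1% of tested genes with a window and in 45% of all 27025 genes with one. The kappaB site was likewise found in 8 of the 14 (57.1%), against 69.1% of tested genes and 53.5% of all genes. The interferon regulatory factor pair was found in 2 of the 14, Gstt1 and Cd59a (14.3%), in 3.92% of tested genes and in 3.99% of all genes. GAS was found in 1 of the 14, Txnrd1 (7.14%), in 8.35% of tested genes and in 9.55% of all genes.

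Txnrd1, the cytosolic thioredoxin reductase and a known target of the oxidant sensor NRF2, had the smallest change of the 20 and the tightest values in pBIC10 and in pBIC. It was at 36.8, 32.4 and 35.1 CPM in pBIC10, 101, 114 and 101 CPM in pBIC and 60.4, 57.5, 64.2 and 64.8 CPM in YC. The highest library of each group was at most 1.14 times the lowest. Cryzl2, of the zeta-crystallin family of quinone oxidoreductases, was at 0.234, 0.350 and 0.807 CPM in pBIC10, 19.3, 9.56 and 15.6 CPM in pBIC and 2.30, 4.13, 3.0 and 3.41 CPM in YC. Its log2 fold change was -2.80 ± 0.44 in pBIC10 and 2.19 ± 0.36 in pBIC, each against YC.

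Other glutathione transferases did not share the pattern as a family. Of 16 further tested transferases, 4 were called higher and 7 lower in pBIC than in YC, against 26.4% and 27.7% of all tested genes. In pBIC10, 4 were called higher and 6 lower than in YC, against 24.8% and 26.9% of all tested genes. Gstt4 alone of the 16 had both calls of the set, which 1.16% of all tested genes had. Gsto1, an omega-class transferase, was above YC in both lymphomas, by 3.54 ± 0.21 on the log2 scale in pBIC10 (edgeR adjusted p = 2.08e-07) and by 3.20 ± 0.21 in pBIC (edgeR adjusted p = 4.04e-07). In a list of 32 glutathione and NRF2 target genes, written after values had been seen, 30 were tested. Of these, 3 were called higher and 12 lower in pBIC10 than in pBIC, against 15.6% and 15.1% of all tested genes. Both calls of the set were met by 4: Txnrd1, Gstt1, Gstt2 and Gstt3 themselves. The list's median log2 fold change was -0.46 between pBIC10 and pBIC, against -0.01 over all tested genes.

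**Figure D3:**
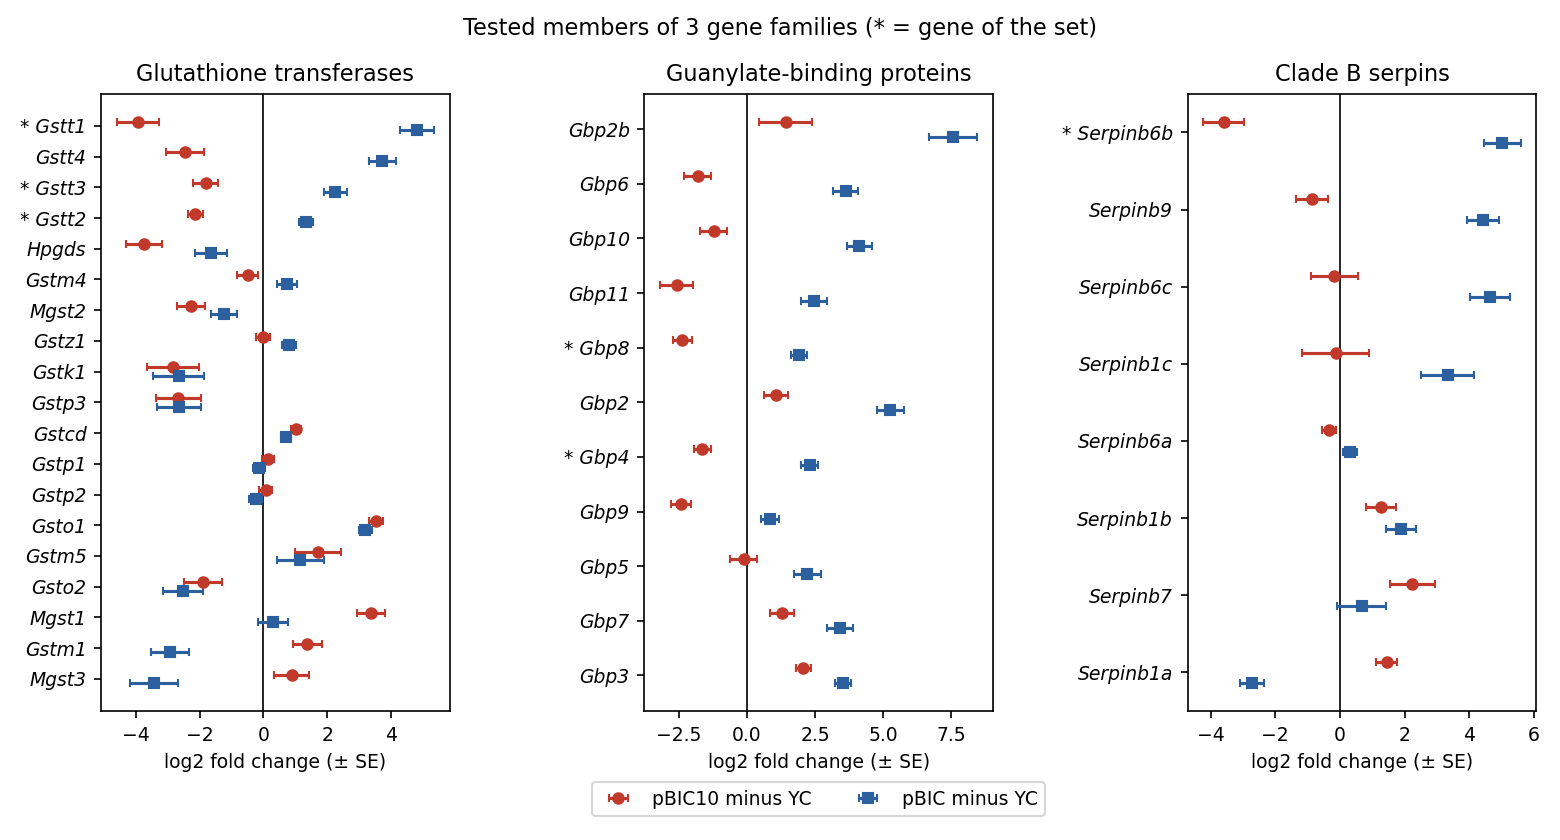
log2 fold change (± SE) against YC of the tested glutathione transferases, guanylate-binding proteins and clade B serpins, in pBIC10 (circles) and in pBIC (squares), with a star before each gene of the set. The theta-class transferases stand at the top with both points on opposite sides of 0; the guanylate-binding proteins all lie right of 0 in pBIC and are split in pBIC10.

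Gbp4 and Gbp8 are guanylate-binding proteins encoded on chromosome 5. Gbp4 was at 15.4, 9.56 and 21.1 CPM in pBIC10, 350, 204 and 147 CPM in pBIC and 40.6, 56.3, 36.9 and 54.7 CPM in YC. Gbp8 was at 4.09, 1.92 and 3.77 CPM in pBIC10, 91.5, 44.1 and 51.5 CPM in pBIC and 15.4, 17.0, 11 and 22.9 CPM in YC. Both were highest in pBIC replicate 1 and lowest in pBIC10 replicate 2. Between pBIC10 and pBIC the log2 fold change was -3.95 ± 0.35 for Gbp4 and -4.27 ± 0.37 for Gbp8. These genes have close copies, and how the authors counted 50-base reads that match several of them is not given in the sources used here, so single values of the family are uncertain.

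All 9 other guanylate-binding protein genes were called lower in pBIC10 than in pBIC and higher in pBIC than in YC. Of all tested genes, 15.1% and 26.4% were so called. Against YC, 2 of the 9 were called higher and 3 lower in pBIC10, against 24.8% and 26.9% of all tested genes. Gbp6 was one of these 3, with a log2 fold change of -1.81 ± 0.49 in pBIC10 (edgeR adjusted p = 0.00941) and of 3.62 ± 0.46 in pBIC (edgeR adjusted p = 7.06e-05). Gbp11, annotated as a transcribed pseudogene, was at -2.58 ± 0.61 in pBIC10 (edgeR adjusted p = 0.00323) and 2.46 ± 0.49 in pBIC (edgeR adjusted p = 0.00109). The third was Gbp9, whose call between pBIC and YC (0.85 ± 0.34, edgeR adjusted p = 0.0491) was lost in 11 of 13 alternatives, with values of 0.23 to 1.24. Gbp3 was above YC in both lymphomas, at 2.07 ± 0.28 in pBIC10 (edgeR adjusted p = 7.39e-05) and 3.53 ± 0.29 in pBIC (edgeR adjusted p = 2.21e-06). Like Gbp4 and Gbp8, it was lower in pBIC10 than in pBIC (-1.46 ± 0.30, edgeR adjusted p = 0.00291), but it stayed above YC there.

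In a list of interferon gamma response genes, 37 were tested, and Gbp4 and Gbp8 were among them. Of the 37, 1 was called higher and 32 lower in pBIC10 than in pBIC, with a median log2 fold change of -1.74. Against YC, 27 were called higher and 6 lower in pBIC (median 1.17), and 2 were called higher and 21 lower in pBIC10 (median -0.84). The medians over all tested genes were -0.01, 0.02 and 0.01 in these comparisons. Of all tested genes, 15.6% were called higher and 15.1% lower in pBIC10 than in pBIC. Against YC these shares were 26.4% and 27.7% in pBIC, and 24.8% and 26.9% in pBIC10. In all, 12 of the 37 (32.4%) had both calls of the set, against 1.16% of all tested genes. Gbp4 and Gbp8 were among the 12 by the rule. Another of the 12 was Irf1, a transcription factor that interferon gamma induces. It was at 85.7, 75.3 and 86.9 CPM in pBIC10, 268, 255 and 227 CPM in pBIC and 127, 125, 99.1 and 127 CPM in YC. Irf1 was lower in pBIC10 than in YC (-0.56 ± 0.15, edgeR adjusted p = 0.00722) and higher in pBIC than in YC (1.07 ± 0.15, edgeR adjusted p = 6.88e-05), changes smaller than those of Gbp4 and Gbp8.

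Mx genes are known for encoding interferon-induced GTPases that act on viruses, but the RefSeq annotation lists Mx1 as a transcribed pseudogene. Its level is of RNA, and whether a protein is made was not measured. Mx1 was at 2.40, 0.642 and 0.861 CPM in pBIC10, 20.7, 17.0 and 35.2 CPM in pBIC and 5.28, 8.74, 5.23 and 7.47 CPM in YC. Its log2 fold change was -2.38 ± 0.45 in pBIC10 and 1.86 ± 0.39 in pBIC, each against YC. In a list of type I interferon response genes that holds Mx1, 33 were tested. Both calls of the set were met by 2 (6.06%), Mx1 included by the rule, against 1.16% of all tested genes. Of the 33, 2 were called higher and 10 lower in pBIC10 than in pBIC, against 15.6% and 15.1% of all tested genes. The median log2 fold change was -0.31. Against YC, 4 were called higher and 17 lower in pBIC10 (median -1.19), and 8 were called higher and 11 lower in pBIC (median -0.20). Of all tested genes, 24.8% were called higher and 26.9% lower in pBIC10 than in YC, and 26.4% and 27.7% in pBIC. The type I list was thus below YC on its median in pBIC10. In pBIC its median was only slightly below YC and its calls went both ways, near the shares of all genes. The interferon gamma list had a median above YC in pBIC.

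Among surface proteins, Timd2 lay farthest below normal in pBIC10, and farthest of all 20 genes. Timd2, a TIM family receptor that takes up H-ferritin in the mouse, was at 0.409, 0.408 and 1.83 CPM in pBIC10, 80.3, 129 and 133 CPM in pBIC and 18.4, 26.6, 40.2 and 35.3 CPM in YC. Its log2 fold change against YC was -5.10 ± 0.51 in pBIC10 and 1.94 ± 0.38 in pBIC. Its relative Havcr1, which encodes TIM-1 and marks some IL-10-producing B cells, was at 1.05, 0.816 and 2.15 CPM in pBIC10, 13.2, 10.1 and 11.9 CPM in pBIC and 66.2, 54.2, 86.2 and 87.2 CPM in YC. Havcr1 was below YC in both lymphomas, at -5.79 ± 0.33 in pBIC10 (edgeR adjusted p = 1.38e-07) and -2.64 ± 0.27 in pBIC (edgeR adjusted p = 8.17e-06).

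Lag3, an inhibitory receptor of lymphocytes that binds MHC class II, was at 0.702, 0.583 and 0.807 CPM in pBIC10, 52.7, 18.9 and 10.9 CPM in pBIC and 4.39, 2.38, 2.58 and 4.64 CPM in YC. The pBIC libraries differed 4.82-fold among themselves, and the lowest was 2.35 times the highest YC library. Lag3 is also made by T and NK cells. The 20 T cell markers summed to 168 to 263 CPM in pBIC10, 97.8 to 167 CPM in pBIC and 570 to 1070 CPM in YC, and the 12 NK cell markers to 2.10 to 5.73 CPM in pBIC10, 10.5 to 35.7 CPM in pBIC and 48.8 to 122 CPM in YC. Between pBIC10 and pBIC, 12 of the 20 T cell markers were called lower in pBIC10, the direction of Lag3, and 4 higher, as were 5 and 0 of the 12 NK cell markers. Of all tested genes, 15.1% were called lower and 15.6% higher. The T cell sum was led by Cd2, which averaged 152 CPM in pBIC10 and 36.1 CPM in pBIC, whereas Cd3g, a chain of the T cell receptor complex, averaged 0.842 CPM in pBIC10 and 6.16 CPM in pBIC. Klra8 and Klre1 were at 0 in all pBIC10 libraries, and no NK marker was at 0 in all pBIC libraries. Both sums were highest in YC, whereas Lag3 was highest in pBIC; the part of such cells in the difference between pBIC10 and pBIC was not tested. In a list of 39 checkpoint and costimulation genes, 37 were tested. Both calls of the set were met by 3 (8.11%), Lag3 included by the rule, against 1.16% of all tested genes. Another was Pdcd1, which encodes the inhibitory receptor PD-1, at 0.175, 0.0583 and 0.108 CPM in pBIC10, 8.93, 16.3 and 4.90 CPM in pBIC and 3.72, 1.43, 1.12 and 1.23 CPM in YC. Pdcd1 was lower in pBIC10 than in YC (-3.98 ± 0.73, edgeR adjusted p = 5.61e-04) and higher in pBIC than in YC (2.45 ± 0.51, edgeR adjusted p = 0.00136).

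Cd300lf, an inhibitory receptor best known from myeloid cells, was at 3.33, 2.51 and 5.11 CPM in pBIC10, 62.0, 39.8 and 39.0 CPM in pBIC and 8.10, 19.6, 12.2 and 16.0 CPM in YC. Rab37, an overlapping gene that strand-blind counting could not separate from it, averaged 0.386 CPM in pBIC10, 2.35 CPM in pBIC and 12.7 CPM in YC, with YC highest. Dnase1l3, a secreted DNase that digests DNA of dying cells, was at 8.19, 6.12 and 8.61 CPM in pBIC10, 296, 231 and 101 CPM in pBIC and 29.9, 16.1, 13.1 and 22.1 CPM in YC. It is known from macrophages and dendritic cells. The 15 markers of macrophages and monocytes summed to 14.8 to 20.2 CPM in pBIC10, 15.8 to 107 CPM in pBIC and 182 to 301 CPM in YC, and the 10 dendritic cell markers to 48.6 to 67.0 CPM in pBIC10, 65.3 to 81.1 CPM in pBIC and 80.0 to 121 CPM in YC. Between pBIC10 and pBIC, 3 of the 15 macrophage and monocyte markers were called lower and 1 higher in pBIC10. Of the 9 tested dendritic cell markers, 1 was called lower and 0 higher. Of all tested genes, 15.1% were called lower and 15.6% higher, so these counts are near the shares of all genes. Fcgr1 and Marco were at 0 in all pBIC10 libraries, and of the dendritic cell markers Cd209a was at 0 in all pBIC libraries. Cd300lf and Dnase1l3 were above YC in pBIC, where the macrophage sum was below YC and the dendritic cell sum overlapped that of YC. By its mean, Bst2 led the dendritic cell sum in pBIC, at 43.7 CPM there and 20.3 CPM in YC. Flt3 averaged 6.1 CPM in pBIC and 49.3 CPM in YC. Of 9 tested dendritic cell markers, 2 were called higher and 3 lower in pBIC than in YC, against 26.4% and 27.7% of all tested genes. The part of macrophages and dendritic cells in the lower pBIC10 levels was not tested.

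Cd59a, which stops the membrane attack complex of complement, was at 2.11, 1.11 and 2.05 CPM in pBIC10, 30.2, 27.6 and 37.5 CPM in pBIC and 15.1, 8.42, 6.98 and 4.79 CPM in YC. The adjacent copy Cd59b, at 0.117, 0.292 and 0.323 CPM in pBIC10, 5.11, 4.29 and 5.33 CPM in pBIC and 2.45, 2.46, 1.40 and 1.89 CPM in YC, missed the rule through YC libraries under 2 CPM. Cd59b was lower in pBIC10 than in YC (-3.05 ± 0.45, edgeR adjusted p = 1.24e-04) and higher in pBIC than in YC (1.26 ± 0.36, edgeR adjusted p = 0.00947). Reads shared between the copies could not be assigned here, so the pair cannot be counted as independent. Cd59b was also singled out after its values were seen, so its adjusted p values are a description.

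Serpinb6b, an intracellular serpin of clade B, a group that inhibits proteases such as granzymes inside the cell, was the most abundant of the set in pBIC. It was at 1.58, 0.933 and 2.53 CPM in pBIC10, 798, 990 and 140 CPM in pBIC and 16.7, 15.7, 24.9 and 22.6 CPM in YC. The pBIC libraries differed 7.07-fold, the widest spread of the 20 genes in that group, and the lowest was 5.62 times the highest YC library. Its log2 fold change was -8.62 ± 0.76 between pBIC10 and pBIC, 5.03 ± 0.56 between pBIC and YC and -3.59 ± 0.63 between pBIC10 and YC. None of 7 other tested clade B serpins had both calls of the set, but only 1.16% of all tested genes had them, so this says little. Of the 7, 4 were called higher and 1 lower in pBIC than in YC. Between pBIC10 and pBIC, 4 were called lower and 1 higher. Of all tested genes, 26.4% and 27.7%, and 15.1% and 15.6%, were so called. Serpinb6c averaged 0.266 CPM in pBIC10, 7.46 CPM in pBIC and 0.296 CPM in YC. Any reads it shares with Serpinb6b could not be assigned here. Serpinb9, the inhibitor of granzyme B in cytotoxic lymphocytes, was at 3.98, 3.03 and 6.24 CPM in pBIC10, 149, 287 and 58.7 CPM in pBIC and 8.55, 7.39, 4.82 and 11 CPM in YC. Serpinb9 was higher in pBIC than in YC (4.42 ± 0.50, edgeR adjusted p = 3.06e-05), while its difference between pBIC10 and YC did not pass (-0.87 ± 0.50, edgeR adjusted p = 0.164). Serpinb1a ran the other way, above YC in pBIC10 (1.45 ± 0.32, edgeR adjusted p = 0.00230) and below YC in pBIC (-2.72 ± 0.36, edgeR adjusted p = 7.06e-05).

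Tmtc3, an enzyme of the endoplasmic reticulum that adds mannose to cadherins, was nearly absent from pBIC10, with 2, 1 and 3 counts. This was 0.117, 0.0583 and 0.161 CPM in pBIC10, against 13.3, 5.59 and 5.38 CPM in pBIC and 2.23, 2.54, 2.44 and 3.19 CPM in YC. No pBIC10 library was above the 3 counts that a count of 0 allows. Its relative Tmtc4 was called higher in pBIC than in YC (2.79 ± 0.37, edgeR adjusted p = 5.75e-05) and was not called between pBIC10 and YC (0.22 ± 0.37, edgeR adjusted p = 0.650). Cep290, a centrosome and cilium gene, starts 235 bases from Tmtc3 on the other strand. It was lower in pBIC10 than in YC (-3.10 ± 0.58, edgeR adjusted p = 6.27e-04), and its difference between pBIC and YC did not pass (1.01 ± 0.47, edgeR adjusted p = 0.0870), except without pBIC replicate 3 (1.43, edgeR adjusted p = 0.00857). The 250 bases before the Tmtc3 start site (chr10:100487348-100487597, GRCm38.p6, minus strand, 5′ to 3′) are shown because they run from the start of Tmtc3 across that of Cep290; none of the 4 motifs was found in them.
Tmtc3: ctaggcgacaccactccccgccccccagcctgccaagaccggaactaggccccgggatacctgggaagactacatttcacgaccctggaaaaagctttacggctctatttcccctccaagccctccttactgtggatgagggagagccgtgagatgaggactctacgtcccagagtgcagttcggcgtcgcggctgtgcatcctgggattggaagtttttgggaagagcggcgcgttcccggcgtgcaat

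Plaat3, a phospholipase and acyltransferase that acts on membrane lipids, was at 3.86, 1.87 and 4.63 CPM in pBIC10, 94.5, 152 and 76.4 CPM in pBIC and 37.7, 25.3, 18.6 and 28.2 CPM in YC. Its log2 fold change against YC was -3.02 ± 0.37 in pBIC10 and 2.0 ± 0.32 in pBIC. Pawr, known as PAR-4 and for promoting apoptosis, was at 1.93, 0.933 and 0.861 CPM in pBIC10, 25.7, 30.8 and 23.4 CPM in pBIC and 3.12, 9.29, 6.42 and 10.9 CPM in YC. Its YC libraries differed 3.49-fold, the widest spread of the 20 genes in YC. Map4k3, a kinase of the JNK and mTORC1 pathways, was at 0.468, 0.991 and 0.538 CPM in pBIC10, 11.8, 10.6 and 12.4 CPM in pBIC and 2.38, 3.10, 2.16 and 2.76 CPM in YC. Its relative Map4k2 was below YC in both lymphomas, at -2.53 ± 0.22 in pBIC10 (edgeR adjusted p = 2.13e-06) and -3.93 ± 0.23 in pBIC (edgeR adjusted p = 1.73e-07). Tlcd2, a membrane protein with a TLC domain, was at 1.34, 1.46 and 0.431 CPM in pBIC10, 9.10, 7.84 and 6.67 CPM in pBIC and 3.57, 2.94, 2.93 and 2.68 CPM in YC. With Tmtc3 it was the lowest of the set in pBIC.

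The set was unevenly spread over the genome. Of the 20 genes, 7 (35.0%) lay on chromosome 10, which held 4.68% of the tested genes matched to a chromosome, 3 lay on chromosome 11, 2 on chromosome 5 and the others on 8 further chromosomes. The 7 were Gstt1, Gstt2, Gstt3, Ddt, Tmtc3, Pawr and Txnrd1. The 3 nearest tested genes on each side of every member made 98 distinct genes outside the set. Of these, 7 (7.14%) had both calls of the set, against 1.16% of all tested genes. Gstt4, Cd59b and Gbp6 kept both calls in all 13 alternatives, as did 2810025M15Rik, a long non-coding RNA beside Cryzl2 and overlapping Rasal2. Rasal2 and Gbp9 each lost a call in at least 4. Most of the 7 are copies or overlapping genes of a member or of each other, whose reads may not be separable, and the cause of the clustering was not tested.

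Libraries of a group did not stand in the same order for all 20 genes. In pBIC10, replicate 3, from the male, was highest for 12 of the 20 genes, and it was highest for 44.6% of all tested genes. Replicate 2 was lowest for 12 of the 20, against 35.1% of tested genes. In pBIC, replicate 3 was lowest for 13 of the 20, against 30.1% of tested genes. The highest pBIC10 library was a median of 2.20 times the lowest over the 20 genes, against 1.40 times over all tested genes with counts in each library. In pBIC this was 2.0 times over the 20 genes and 1.71 times over all, and in YC 1.68 and 1.49 times. The rule chose genes low in pBIC10, where the median of their mean levels was 1.71 CPM. Counting error widens the ratio at such levels, so the pBIC10 figures are not a like comparison.

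**Figure D4:**
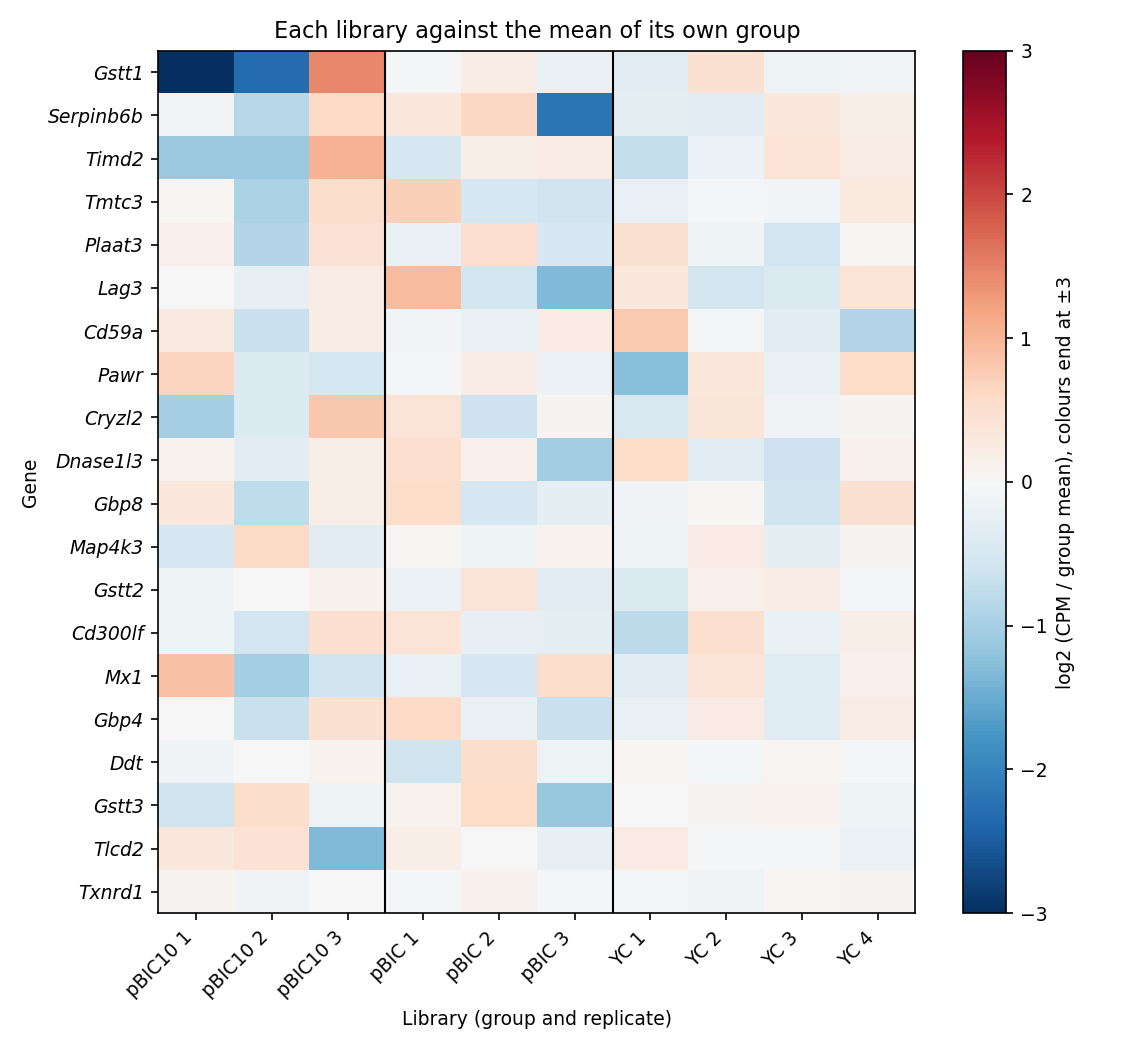
log2 ratio of each library to the mean CPM of its own group for the 20 genes, in 3 pBIC10, 3 pBIC and 4 YC libraries, with red above and blue below the group mean. Gstt1 in pBIC10 and Serpinb6b in pBIC carry the strongest colours, and the Txnrd1 row is nearly white throughout.

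Genes near the limits show how the rule drew its line. Txnrd1 was the nearest inside the pBIC limit, its lowest pBIC library at 1.55 times the highest YC library, and Bicdl1 the nearest outside, at 1.47 times. Dnase1l3 was the nearest inside the pBIC10 limit, its highest pBIC10 library at 0.656 times the lowest YC library, and Marchf3 the nearest outside, at 0.684 times. Map4k3 had the lowest YC level inside the rule, 2.16 CPM in its lowest YC library, and Cd59b the highest outside, 1.40 CPM. Of the 12510 genes with at least 2 CPM in every YC library, 1277 met the pBIC limit and 2115 the pBIC10 limit, and the 20 genes were 1.57% of the first and 0.946% of the second. The variable segments Igkv6-17 and Ighv8-11 also met all limits and were left out by name.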

How the data were processed

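The deposited table gives raw counts for each gene in 10 libraries, which the authors made with featureCounts on genome GRCm39 after FastQC, per the submitters' processing notes. The aligner, annotation, strand setting and handling of multi-mapped reads were not given in the sources used here. Poly(A) RNA was read as single-end 50-base reads, per the labels. CPM is a count divided by its column sum. Counts of 17718 genes kept by filterByExpr were scaled by TMM and fitted in edgeR 4.0.16 (R 4.3.3) for all 10 libraries with a coefficient per group (quasi-likelihood, robust). Every adjusted p is from edgeR's two-sided test with Benjamini-Hochberg adjustment over all tested genes in a comparison, called under 0.05. The SE is the log2 fold change over the square root of F. The pBIC and pBIC10 comparisons with YC share the YC libraries.

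The 20 genes and the gene lists were chosen with earlier results of these data known. All 20 are given; lists are described by counts and medians, and relatives and neighbours (the 3 nearest tested genes on each side) were singled out after their values were seen; not every neighbour counted is reported here by name. Of the set, 20 matched the RefSeq table by symbol (GRCm38, an earlier build), which was used for names, order and chromosome, and 14 matched the RefSeq promoter table (GRCm38.p6). The antioxidant response element was added after seeing the genes. Alternatives were DESeq2 1.42.0, other scalings, filters and limits, sex as a covariate, a fit of only the groups compared, leaving out each library in turn, and females only (added after seeing the data). Single genes were compared under 13 of these alternatives: edgeR with DESeq2 size factors, sex as a covariate, each library left out, and females only. DESeq2's own test, the unfiltered fit and the fit of only the groups compared entered the counts of called genes alone. The pipeline was tested on simulated data. Figures were drawn with matplotlib 3.10.9.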

Additional observations from a re-analysis of the deposited data

How the results depend on the processing

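The rule found 20 genes, 22 with TMM-scaled CPM and 20 with a column sum that omits antigen receptor genes. With limits of 2 and 0.5 it found 6 (Gstt1, Serpinb6b, Plaat3, Lag3, Cryzl2 and Map4k3), with any gap between the groups 183, with at least 10 CPM in each YC library 11, and with no minimum 41. Leaving out each library in turn gave 22 to 32 genes, 32 without pBIC replicate 3, an outcome that the rule limits in advance, since leaving out a library can only loosen it. Counts of called genes stayed within 1.5 times under every alternative run. Without 1 library they ranged over 3884 to 6052 for pBIC10 against pBIC, 8331 to 9949 for pBIC against YC and 7969 to 10128 for pBIC10 against YC. Single genes were compared under 13 alternatives, which did not include DESeq2's own test. Of the log2 fold changes of the 20 genes under these, 776 moved by less than the spread between libraries and 4 by more. All 4 were of Gstt1. Without pBIC10 replicate 3, or with females only, its log2 fold change was -11.56 and -11.57 between pBIC10 and pBIC. Between pBIC10 and YC it was -6.74 and -6.79. Of the log2 fold changes of 22 other genes, 829 kept their call, 25 lost it and 4 gained it, with 0 changes of sign. The call of Mif between pBIC10 and pBIC was lost in 4 alternatives and that of Il10 between pBIC10 and YC in 5. Levels of Gstt1, Tmtc3 and Gstt4 in pBIC10 rest on 1 to 3 counts in most libraries, so depth limits their folds. No paired analysis was possible because replicate numbers only name the libraries in accession order and mark no shared animal or batch.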

Other observations

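The variable segments left out by name had the same order of groups as the set. Igkv6-17 was at 0.175, 0.408 and 0.915 CPM in pBIC10, 871, 1080 and 1250 CPM in pBIC and 72.3, 92.1, 38.2 and 140 CPM in YC, and took 72.7 to 77.8% of kappa variable segment counts in pBIC. Ighv8-11 was at 0.175, 0 and 0.431 CPM in pBIC10, 229, 156 and 297 CPM in pBIC and 21.3, 13.3, 15.4 and 24.2 CPM in YC. Both are the leading segments of the pBIC libraries.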
